A study of Mus musculus with 12 samples.

Results

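The genes described here are Eef1a1, which encodes the translation elongation factor eEF1A1, together with the elongation factor genes Eef1b2, Eef1d, Eef1g and Eef2, Eef1e1 of the multi-tRNA synthetase complex, the eEF2 kinase gene Eef2k and the lysine methyltransferase genes Eef1akmt1 and Eef1akmt4. They are 9 of the 56748 genes in the deposited count table, of which 29220 had a count in at least 1 library, and were taken by gene name. The set was selected on these data, from the lower counts of Eef1a1 and Eef1akmt4 in hepatocytes given the siRNA against ABHD6, a serine hydrolase known for monoacylglycerol hydrolysis. The fold changes of that comparison are therefore a description, with no test for the 9 genes.

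The study measured poly-A RNA in 12 mouse samples, 4 groups of 3. Primary hepatocytes received an siRNA against ABHD6 (siABHD6, genotype labelled ABHD6 knockdown) or a scrambled siRNA (siScramble, labelled WT), and their treatment is labelled "no treatment". Livers came from C57BL/6 mice carrying liver ABHD6 overexpression (ABHD6 OE, genotype labelled LABHD6 OE) or GFP (labelled WT), and all of these mice ate a diet with 60% of calories from fat, for 8 weeks. The study text gives the overexpression as an AAV8-TBG-ABHD6 vector injected into the tail vein, TBG being a promoter used to direct expression to hepatocytes, and neither age nor the vector of the GFP mice is given in the sources used here. The labels do not say whether the 3 hepatocyte libraries of a group came from separate cultures or animals, so p-values among them measure only the spread between these libraries, which may be technical.

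During translation elongation, eEF1A bound to GTP brings each aminoacyl-tRNA to the ribosome, the eEF1B complex exchanges its GDP for GTP, and eEF2 then moves the ribosome along the mRNA. eEF2 kinase, which depends on calcium and calmodulin, phosphorylates eEF2 and so slows elongation. eEF1A is methylated on several lysines, and in human cells EEF1AKMT1 and EEF1AKMT4 each modify a different one. eEF1A1 is among the most abundant proteins of most cell types, hepatocytes included, whereas its paralogue Eef1a2 is known from muscle and neurons and had 19 counts over all 12 libraries.

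The letters upstream of 3 of the genes are shown because Eef1a1 and Eef1akmt4 are the genes that set the choice, and Eef2 is the other very abundant factor. Each sequence is the 250 bases before the RefSeq gene start on the mouse build GRCm38.p6, written 5′ to 3′ on the gene's strand, at chr9:78481725-78481974 (minus strand), chr16:20611351-20611600 (plus strand) and chr10:81176381-81176630 (plus strand). Capitals mark matches on either strand to a TATA box (TATAAA), a GC box (GGGCGG, or CCGCCC on the other strand), an E-box (CACGTG) or a FoxO core (GTAAACA).
Eef1a1: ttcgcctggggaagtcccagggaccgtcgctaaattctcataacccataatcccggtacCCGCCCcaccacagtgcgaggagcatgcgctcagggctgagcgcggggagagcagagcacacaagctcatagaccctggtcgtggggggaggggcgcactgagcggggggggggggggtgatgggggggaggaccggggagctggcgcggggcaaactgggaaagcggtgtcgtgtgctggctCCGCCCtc
Eef1akmt4: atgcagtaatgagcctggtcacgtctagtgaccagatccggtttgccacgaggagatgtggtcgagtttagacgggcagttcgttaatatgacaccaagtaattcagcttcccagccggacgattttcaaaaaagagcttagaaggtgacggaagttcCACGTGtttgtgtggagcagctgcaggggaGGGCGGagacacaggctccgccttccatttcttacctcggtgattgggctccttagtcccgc
Eef2: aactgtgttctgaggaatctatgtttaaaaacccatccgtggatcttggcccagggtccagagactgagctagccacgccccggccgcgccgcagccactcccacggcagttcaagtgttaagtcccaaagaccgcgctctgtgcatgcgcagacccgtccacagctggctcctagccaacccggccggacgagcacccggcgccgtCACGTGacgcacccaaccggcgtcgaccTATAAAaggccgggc
The Eef1a1 window held 2 GC boxes and 68.0% G or C, against a median of 52.4% over all 32851 windows of the same length. The Eef1akmt4 window held 1 GC box and 1 E-box at 52.8% G or C, and all 250 of its bases lie inside the GRCm38 record of Alg3. The Eef2 window held 1 TATA box and 1 E-box at 62.8% G or C. Of all windows, 12.4% held the TATA box, 32.7% the GC box, 6.02% the E-box and 3.17% the FoxO core, which none of these 3 windows held. RefSeq windows were matched for 6 of the 9 genes.

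Libraries held between 12295733 and 16234658 counts, and the biological coefficient of variation was 4.93% within the hepatocyte groups and 28.1% within the liver groups. A liver library of each group stood apart over all genes, by the chi-square per gene between replicate libraries, which is near 1 where they differ by counting noise alone. ABHD6 OE liver 1 gave 145 and 111 against ABHD6 OE livers 2 and 3, which gave 33.2 between them. GFP liver 3 gave 240 and 235 against GFP livers 1 and 2, which gave 17.5 between them, and it had the lowest TMM factor of the 12 libraries (0.702). Abhd6 averaged 3.99 ± 0.129 CPM in siABHD6 hepatocytes and 26.8 ± 1.27 CPM in siScramble hepatocytes, and 189 ± 52.3 CPM in ABHD6 OE livers and 45.8 ± 12.6 CPM in GFP livers (SD, n = 3 each). The fitted log2 fold change of Abhd6, siABHD6 over siScramble, was −2.77 (SE 0.10). Unless stated otherwise, CPM is the read count scaled to library size after TMM normalization over all 12 libraries. All 10 hepatocyte markers examined had counts in every group. Their summed CPM, by library total, ran from 16538 to 17308 in siABHD6 hepatocytes, from 17324 to 17621 in siScramble hepatocytes, from 61626 to 108776 in ABHD6 OE livers and from 71369 to 110919 in GFP livers. Of these 10 markers, 3 were higher and 1 lower in siABHD6 than in siScramble hepatocytes (adjusted p under 0.05 by edgeR's quasi-likelihood test). Their median log2 fold change was 0.13, which the sums do not show. In that comparison 15.4% of all genes tested were called.

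Eef1a1 (ENSMUSG00000037742, chr9:78385731-78396433 on mm39, minus strand) had 3355, 3650 and 3728 CPM in the siABHD6 hepatocytes, against 6843, 6798 and 6765 CPM in the siScramble hepatocytes. In the livers it had 5021, 4490 and 5194 CPM with ABHD6 OE, against 4679, 5278 and 5443 CPM with GFP. In this TMM-scaled CPM the 3 siABHD6 libraries were the lowest of the 12 and the 3 siScramble libraries the highest, with the overlapping liver groups in between. The place of the livers depends on the scaling. As a share of all counts, Eef1a1 was 0.431% to 0.470% in siABHD6 hepatocytes and 0.871% to 0.892% in siScramble hepatocytes. That share was 0.376% to 0.394% in ABHD6 OE livers and 0.374% to 0.428% in GFP livers, below every hepatocyte library. The fitted log2 fold change of siABHD6 over siScramble was −0.95 (SE 0.03), a level 0.518 times that of siScramble. Between livers it was −0.07 (SE 0.21, adjusted p = 1.00 by edgeR's quasi-likelihood test). In these bulk samples fewer cells of a type and less RNA per cell cannot be told apart.

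**Figure D1:**
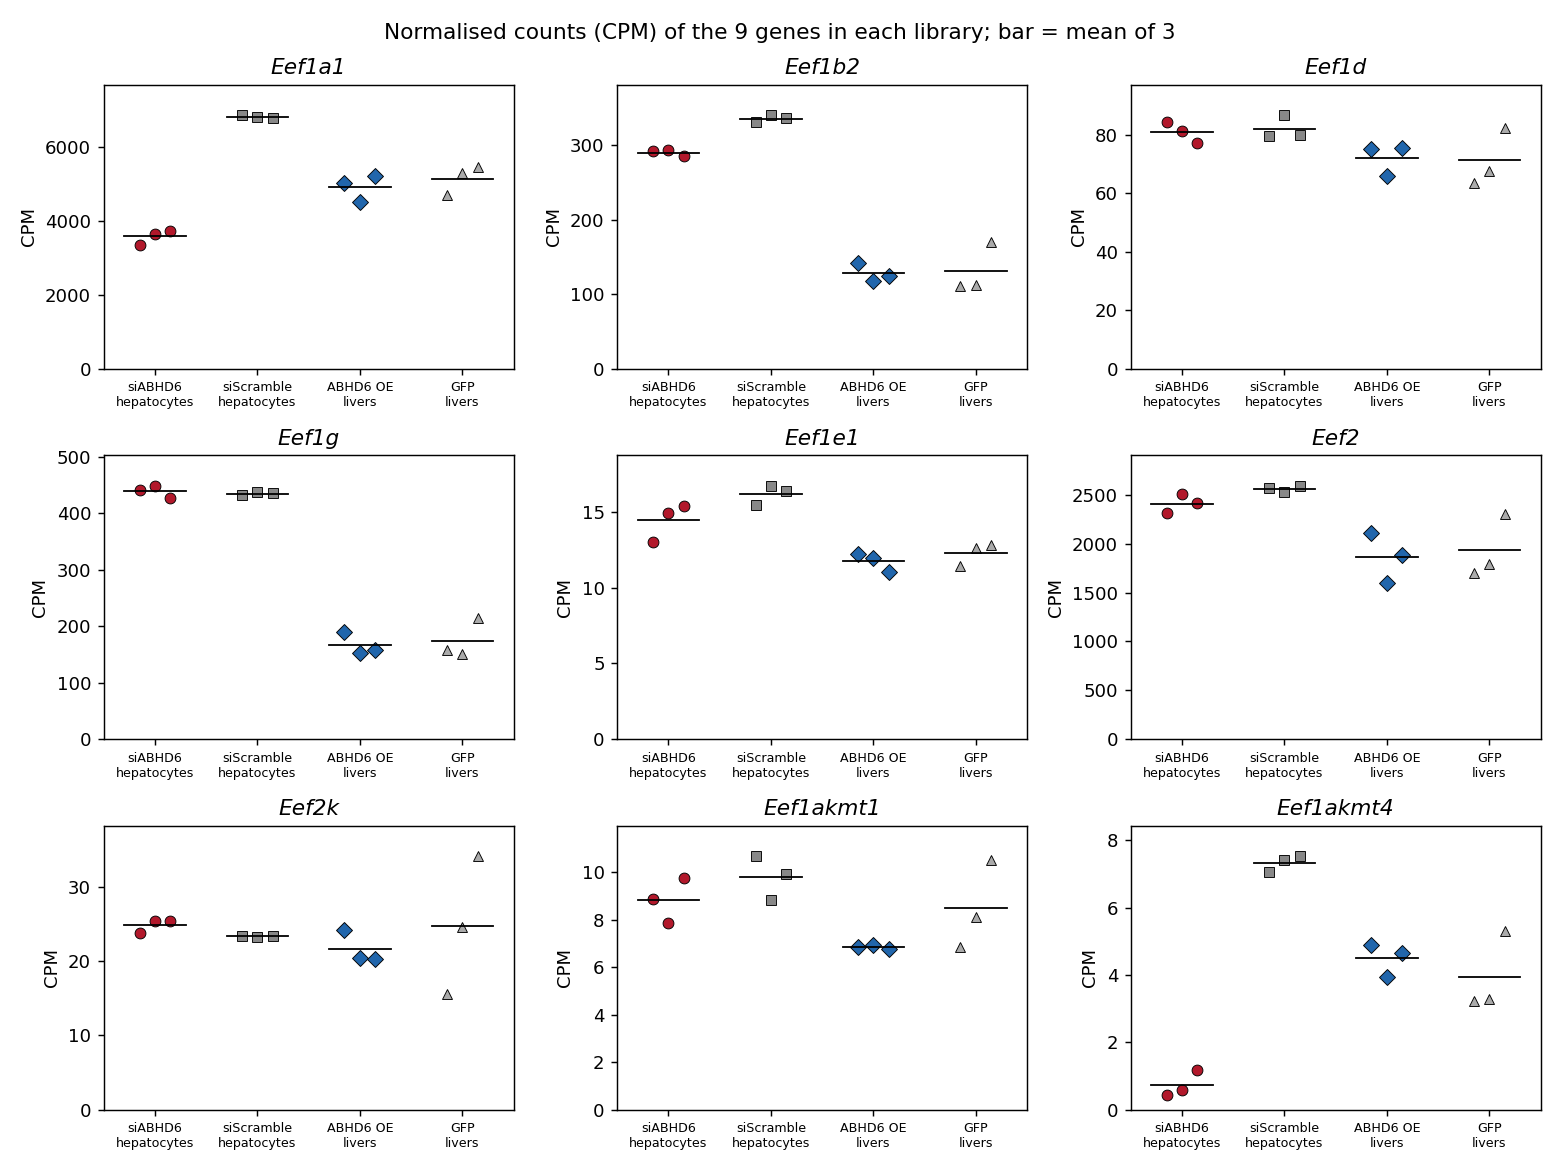
Normalised counts (CPM, vertical axes from 0) of the 9 genes in each of the 12 libraries, 3 points per group, with a bar at the group mean. Eef1a1 lies between 3355 and 3728 CPM in siABHD6 hepatocytes and between 6765 and 6843 CPM in siScramble hepatocytes, and Eef1akmt4 is at or under 1.18 CPM in the siABHD6 libraries.

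Eef1a1 held rank 11 or 12 of all genes by count in the siABHD6 libraries and rank 7 in each siScramble library, and ranks 26 to 34 in ABHD6 OE livers and 21 to 36 in GFP livers. Among the 84 genes that averaged at least 1000 CPM in the hepatocyte libraries, its fold change of siABHD6 over siScramble was the lowest, and the highest of the 84 was 0.99. Among all 13449 genes tested in hepatocytes it was the 81st lowest, and the 59th lowest among protein-coding genes.

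Eef1a1 has processed copies elsewhere in the genome, and how reads that match several places were counted is not given in the sources used here. The annotated copy Eef1a1-ps1 had 135 counts over all libraries, and its own log2 fold change in hepatocytes was −0.67 (SE 0.41, adjusted p = 0.323 by edgeR's quasi-likelihood test). A pseudogene of Eef2 named after its values were seen, Eef2-ps2, had 2085 counts and a hepatocyte log2 fold change of −0.14 (adjusted p = 0.434, same test). Values for Eef1a1 and Eef2 are uncertain to the extent that such copies share reads.

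Eef1akmt4 (ENSMUSG00000115219, chr16:20430343-20437761 on mm39, plus strand) encodes the methyltransferase whose human counterpart modifies a lysine of eEF1A. It had 7, 11 and 19 reads in the siABHD6 libraries, against 123, 131 and 120 reads in the siScramble libraries. As levels these were 0.443, 0.596 and 1.18 CPM in siABHD6 hepatocytes, against 7.05, 7.40 and 7.52 CPM in siScramble hepatocytes. No siABHD6 library came near the lowest siScramble library, although the siABHD6 libraries differed among themselves more than the siScramble ones did. The log2 fold change of siABHD6 over siScramble was −3.32 (SE 0.24), 0.0999 times the siScramble level, and it was the lowest of all 13449 genes tested. Livers had 4.88, 3.95 and 4.65 CPM with ABHD6 OE, against 3.24, 3.28 and 5.30 CPM with GFP, and these groups overlapped.

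Counts for Eef1akmt4 rest on a crowded locus. It overlaps Alg3, a mannosyltransferase gene of N-glycan synthesis on the opposite strand, over 143 bases on mm39, and whether strand was used in counting is not given. The protein-coding record Gm49333, on the same strand, overlaps it over 7402 bases and had 0 counts over the 12 libraries. How reads that match both records were assigned is not given. Alg3 averaged 19.8 ± 1.94 CPM in siABHD6 hepatocytes and 20.3 ± 0.392 CPM in siScramble hepatocytes (SD, n = 3 each), a log2 fold change of −0.06 (SE 0.08, adjusted p = 0.734 by edgeR's quasi-likelihood test). Per kilobase of the length given in the table, Eef1akmt4 stood at 0.0235, 0.0287 and 0.0691 of Alg3 in the siABHD6 libraries, against 0.371, 0.376 and 0.384 in the siScramble libraries. The ratio was 0.339, 0.279 and 0.332 in ABHD6 OE livers, against 0.200, 0.265 and 0.264 in GFP livers. The hepatocyte groups lay far apart in this ratio. Eef1akmt4 was chosen for its lower counts in siABHD6 hepatocytes, so nothing is read from that gap. Between livers the groups were separated only narrowly (0.279 against 0.265), and the levels of Eef1akmt4 and of Alg3 each overlapped. The ratio was not tested, and the share of other gene pairs separated in this way was not counted.

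Eef1akmt1 (ENSMUSG00000021951, chr14:57787054-57809069, minus strand), the methyltransferase gene whose human product modifies another eEF1A lysine, had 8.86, 7.86 and 9.77 CPM in siABHD6 hepatocytes, against 10.7, 8.81 and 9.90 CPM in siScramble hepatocytes. It had 6.85, 6.91 and 6.74 CPM in ABHD6 OE livers, against 6.86, 8.11 and 10.5 CPM in GFP livers. Both pairs of groups overlapped, the livers only through the lowest GFP library. Its log2 fold changes were −0.17 (SE 0.12) in hepatocytes and −0.31 (SE 0.22, adjusted p = 1.00 by edgeR's quasi-likelihood test) in livers. The level of Eef1akmt4 per kilobase was 0.0293, 0.0445 and 0.0710 of that of Eef1akmt1 in siABHD6 hepatocytes, against 0.388, 0.493 and 0.446 in siScramble hepatocytes. These ratios do not depend on how libraries were scaled, and the groups lay far apart. Nothing is read from that gap either, because Eef1akmt4 was chosen on this comparison.

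The genes of the eEF1B complex, which recharges eEF1A with GTP, gave unlike values. Eef1b2 (ENSMUSG00000025967, chr1:63215984-63219645, plus strand), which encodes a guanine nucleotide exchange subunit, had 292, 293 and 285 CPM in siABHD6 hepatocytes, against 331, 340 and 337 CPM in siScramble hepatocytes, with no overlap. Eef1g (ENSMUSG00000071644, chr19:8944405-8955843, plus strand), the structural subunit, had 442, 449 and 427 CPM in siABHD6 hepatocytes, against 432, 438 and 436 CPM in siScramble hepatocytes, with overlap. Their log2 fold changes were −0.23 (SE 0.03) for Eef1b2 and −0.01 (SE 0.03) for Eef1g. The ratio of Eef1b2 to Eef1g per kilobase was 0.679, 0.671 and 0.687 in siABHD6 hepatocytes, against 0.787, 0.799 and 0.793 in siScramble hepatocytes, with no overlap. Eef1b2 overlaps Ndufs1, a gene of mitochondrial complex I on the opposite strand, by 9 bases, and Ndufs1 had a log2 fold change of −0.07 (adjusted p = 0.388 by edgeR).

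Eef1d (ENSMUSG00000055762, chr15:75766054-75781405, minus strand), the other exchange subunit, had 84.4, 81.4 and 77.1 CPM in siABHD6 hepatocytes, against 79.4, 86.6 and 80.0 CPM in siScramble hepatocytes, and its groups overlapped (log2 fold change −0.04, SE 0.05). It shares 277 bases with Naprt, a nicotinate phosphoribosyltransferase gene on the same strand, which fell by 0.29 on the log2 scale in siABHD6 hepatocytes (SE 0.06, adjusted p = 0.00224 by edgeR's quasi-likelihood test). Eef1e1 (ENSMUSG00000001707, chr13:38828183-38843034, minus strand), whose product is a subunit of the multi-tRNA synthetase complex, had 13.0, 14.9 and 15.4 CPM in siABHD6 hepatocytes, against 15.5, 16.7 and 16.4 CPM in siScramble hepatocytes. Its highest siABHD6 library and lowest siScramble library almost touched, and the log2 fold change was −0.18 (SE 0.09).

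Eef2 (ENSMUSG00000034994, chr10:81012465-81018332, plus strand), the translocation factor, had 2309, 2507 and 2416 CPM in siABHD6 hepatocytes, against 2570, 2530 and 2591 CPM in siScramble hepatocytes. The siABHD6 libraries were all lower, by a small margin, and the log2 fold change was −0.11 (SE 0.03). Per kilobase, Eef1a1 was 1.94, 1.94 and 2.06 times Eef2 in siABHD6 hepatocytes, against 3.55, 3.58 and 3.48 times in siScramble hepatocytes. In livers the ratio was 3.17, 3.74 and 3.68 with ABHD6 OE, against 3.67, 3.93 and 3.15 with GFP. The siABHD6 libraries were set apart in this ratio, with the 9 other libraries sharing a range. Eef1a1 was chosen for its lower counts in siABHD6 hepatocytes, so nothing is read from that gap. Against Eef1g, Eef1a1 stood at 7.92, 8.48 and 9.11 per kilobase in siABHD6 hepatocytes, against 16.5, 16.2 and 16.2 in siScramble hepatocytes. The liver ratios to Eef1g were 27.5, 30.5 and 34.4 with ABHD6 OE, against 30.7, 36.3 and 26.5 with GFP, above all of the hepatocyte values.

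**Figure D2:**
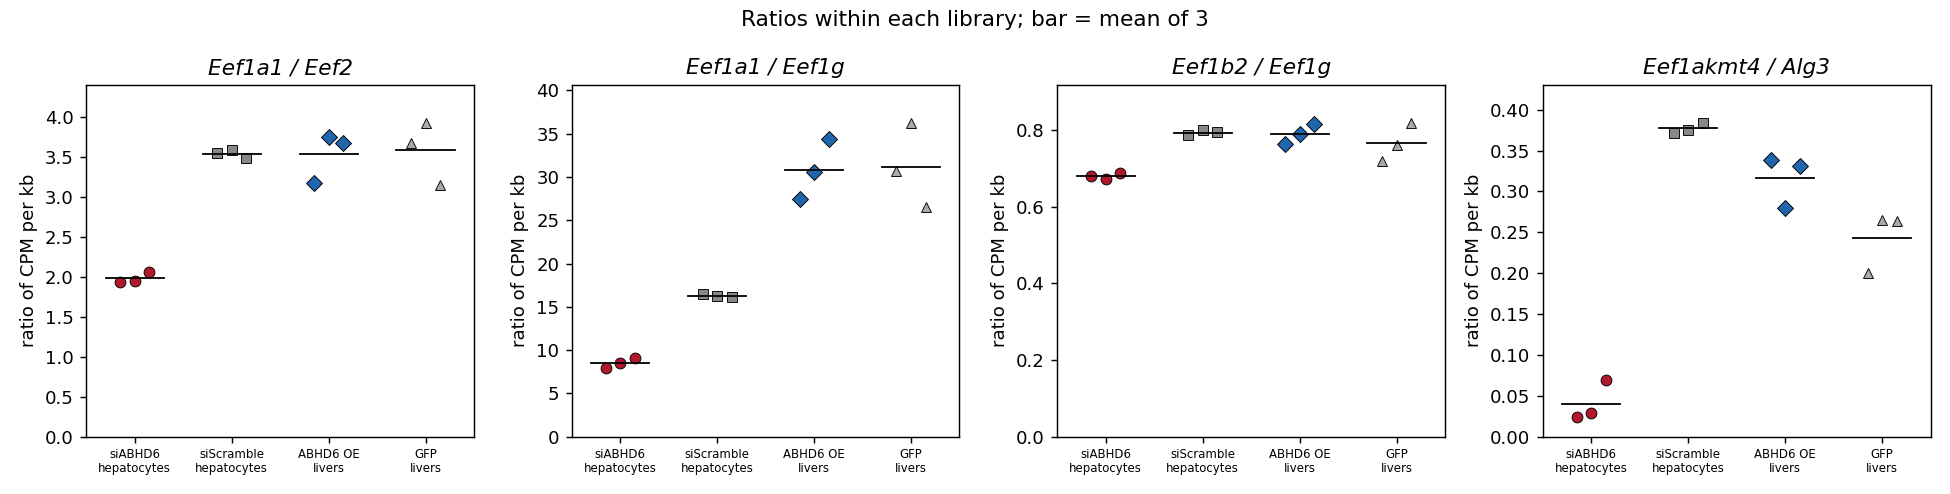
Ratios of levels per kilobase between pairs of genes in each library (vertical axes from 0, 3 points per group, bar at the mean), which do not depend on library scaling. Eef1a1 over Eef2 is at most 2.06 in the siABHD6 libraries and at least 3.15 in all others, and Eef1akmt4 over Alg3 is at most 0.0691 in the siABHD6 libraries and at least 0.200 in all others.

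Eef2k (ENSMUSG00000035064, chr7:120442054-120506673, plus strand), which encodes the kinase that inactivates eEF2, had 23.7, 25.4 and 25.4 CPM in siABHD6 hepatocytes, against 23.3, 23.2 and 23.4 CPM in siScramble hepatocytes. Every siABHD6 library was above every siScramble library, but only by a small margin (23.7 against 23.4 CPM), at a log2 fold change of 0.07 (SE 0.07). The share of all genes separated between the hepatocyte groups is not given here. Nothing is therefore read from the separation of Eef2k, or of the other genes, in that comparison. In livers Eef2k had 24.2, 20.4 and 20.3 CPM with ABHD6 OE, against 15.6, 24.7 and 34.1 CPM with GFP. The GFP livers spanned more than the ABHD6 OE livers on both sides. The overlapping opposite-strand gene Gm15774 had 62 counts over all libraries.

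Read over the set, 4 of the 9 genes (Eef1a1, Eef1b2, Eef2 and Eef1akmt4) had an adjusted p under 0.05 in the fit of siABHD6 against siScramble, all of them lower, and 15.4% of the 13449 genes tested did. Since the choice of genes used this comparison, nothing is read from that count. The median log2 fold change of the 9 was −0.17, against −0.00 over all genes tested. Apart from Eef1a1 and Eef1akmt4, the other 7 ran from −0.23 to 0.07.

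**Figure D3:**
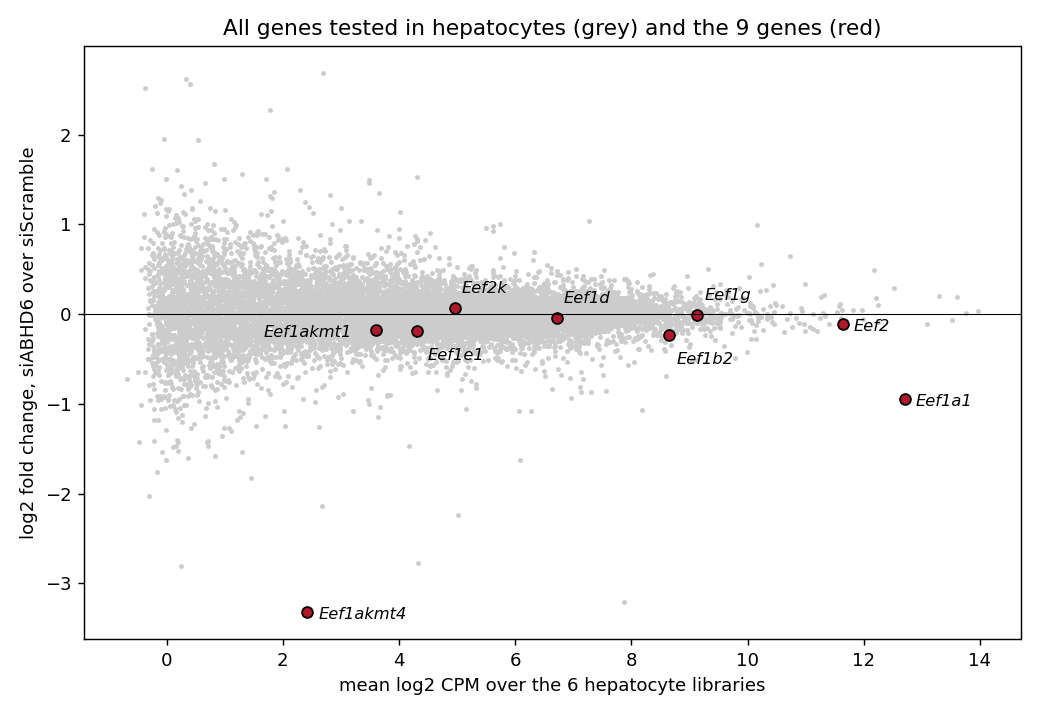
Log2 fold change of siABHD6 over siScramble hepatocytes (vertical axis) against mean log2 CPM over the 6 hepatocyte libraries (horizontal axis), for all 13449 genes tested (grey) and the 9 genes (red). The CPM of the horizontal axis was scaled over those 6 libraries alone. Eef1a1 at −0.95 lies below the other genes of its abundance, and Eef1akmt4 at −3.32 is the lowest point.

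In livers the comparison of ABHD6 OE with GFP, which was not used to choose the genes, gave no call for any of the 9: 0 of 9 by edgeR's quasi-likelihood test, 0 at an unadjusted p under 0.05, and 0 by DESeq2 or limma-voom. Over all 13910 genes tested the same test called 0 (0%), with 301 at an unadjusted p under 0.05, while DESeq2 called 8 and limma-voom 0. The libraries of ABHD6 OE and GFP livers were fully separated for 0 of the 9 genes, and for 6.71% of all genes tested. Abhd6 itself, with a log2 fold change of 2.04 (SE 0.28) and no overlap between its groups, had an adjusted p of 1.00 in the same edgeR fit.

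The 9 liver log2 fold changes ran from −0.31 (SE 0.22) for Eef1akmt1 to 0.19 (SE 0.28) for Eef1akmt4, with a median of −0.06 against −0.01 over all genes, and every adjusted p was 1.00 by edgeR's quasi-likelihood test. Eef1b2 had 141, 118 and 125 CPM with ABHD6 OE, against 111, 112 and 171 CPM with GFP. Eef1g had 191, 153 and 157 CPM with ABHD6 OE, against 159, 152 and 214 CPM with GFP. The third GFP liver, which stood apart over all genes and had the lowest TMM factor, was the highest of the GFP livers for each of the 9 genes in TMM-scaled CPM. As a share of all counts this did not hold for Eef1a1 (0.382%, against 0.428% in GFP liver 2) or Eef1e1 (0.000900%, against 0.00102% in GFP liver 2). Eef2 had 2110, 1600 and 1883 CPM with ABHD6 OE, against 1702, 1793 and 2304 CPM with GFP. Eef1d had 75.1, 66.0 and 75.5 CPM with ABHD6 OE, against 63.6, 67.7 and 82.4 CPM with GFP, and Eef1e1 had 12.3, 11.9 and 11.0 CPM with ABHD6 OE, against 11.4, 12.6 and 12.8 CPM with GFP. All of these ranges overlapped. Without the third GFP liver the log2 fold changes of Eef1b2, Eef1g, Eef2 and Eef2k turned positive, at 0.19, 0.10, 0.09 and 0.10, that of Eef1akmt1 was −0.13 and that of Eef1akmt4 0.46. Without ABHD6 OE liver 1 they ran from −0.31 for Eef1akmt1 to 0.13 for Eef1akmt4, and 0 of the 9 genes were called by edgeR in either case.

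Cultured hepatocytes were next set against whole livers through their controls, siScramble against GFP. These groups differ at once in tissue, culture, siRNA and GFP, so that these cannot be told apart. They may also differ in diet, which the labels do not settle for the mice that gave the hepatocytes. The siScramble libraries also serve as the control of the siRNA comparison. Because the lower counts of Eef1a1 and Eef1akmt4 in siABHD6 hepatocytes, relative to these same siScramble libraries, chose the genes, the values of those 2 genes here are a description with no test. Of the other 7 genes, 3 were called by edgeR's quasi-likelihood test and all 3 were higher in siScramble hepatocytes. That compares with 70.3% of the 14215 genes tested called in either direction and 33.3% called higher. The median log2 fold change of the 9 was 0.33, against −0.03 over all genes tested with TMM scaling, which sets that median near 0. Scaled to library totals, the median of all genes became 0.80 and all of the 7 were called higher. On that scale 8388 of the 14215 genes tested were called higher and 2923 lower, so directions here are relative to the median gene.

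Eef1b2 averaged 336 ± 4.62 CPM in siScramble hepatocytes and 131 ± 34.2 CPM in GFP livers (SD, n = 3 each), a log2 fold change of 1.28 (SE 0.18, adjusted p = 0.000571 by edgeR's quasi-likelihood test). Eef1g averaged 435 ± 2.72 CPM in siScramble hepatocytes and 175 ± 34.2 CPM in GFP livers, a log2 fold change of 1.24 (SE 0.15, adjusted p = 0.000261, same edgeR test). Both exchange-complex genes were thus higher in every cultured library than in any GFP liver, and both stayed called in all 15 alternative settings. How large a share of all genes was separated between siScramble hepatocytes and GFP livers is not given here. Nothing is therefore read from the lack of overlap of Eef1b2 and Eef1g, or of Eef1a1, Eef1akmt4 and the other genes, in that comparison. Eef1d, the remaining eEF1B gene, averaged 82.0 ± 4.02 CPM in siScramble hepatocytes and 71.3 ± 9.89 CPM in GFP livers, with overlap (log2 fold change 0.12, SE 0.11, adjusted p = 0.350 by edgeR). The difference between these subunits was not tested.

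Eef1akmt4 averaged 7.32 ± 0.245 CPM in siScramble hepatocytes and 3.94 ± 1.18 CPM in GFP livers, a log2 fold change of 0.82 (SE 0.24), with no overlap. Eef1e1 averaged 16.2 ± 0.641 CPM in siScramble hepatocytes and 12.3 ± 0.757 CPM in GFP livers, a log2 fold change of 0.32 (SE 0.11, adjusted p = 0.0370 by edgeR). Its call was lost without the first, the second or the third siScramble library (adjusted p = 0.0714, 0.115 and 0.101 by edgeR) or the first GFP liver (adjusted p = 0.0630). Eef1akmt1, at 9.79 ± 0.929 CPM in siScramble hepatocytes and 8.50 ± 1.86 CPM in GFP livers, was not called (adjusted p = 0.578 by edgeR).

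Eef1a1 averaged 6802 ± 38.8 CPM in siScramble hepatocytes and 5133 ± 402 CPM in GFP livers, with no overlap and a log2 fold change of 0.33 (SE 0.14), which was 0.38 without the third GFP liver. Eef2 averaged 2564 ± 30.8 CPM in siScramble hepatocytes and 1933 ± 325 CPM in GFP livers, a log2 fold change of 0.33 (SE 0.15, adjusted p = 0.0907 by edgeR), and 0.48 without the third GFP liver (adjusted p = 2.25e-05). Eef1d was also called without that liver, at 0.25 (adjusted p = 0.0106 by edgeR). Eef2k averaged 23.3 ± 0.114 CPM in siScramble hepatocytes and 24.8 ± 9.26 CPM in GFP livers, a log2 fold change of −0.16 (SE 0.25, adjusted p = 0.581 by edgeR), and was lower in siScramble without the first GFP liver, at −0.39 (adjusted p = 0.0488). In TMM-scaled CPM, GFP livers 1 and 3 carried the lowest and the highest Eef2k of the 12 libraries. As a share of all counts the highest was siABHD6 library 2 (0.00324%, against 0.00239% in GFP liver 3).

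**Figure D4:**
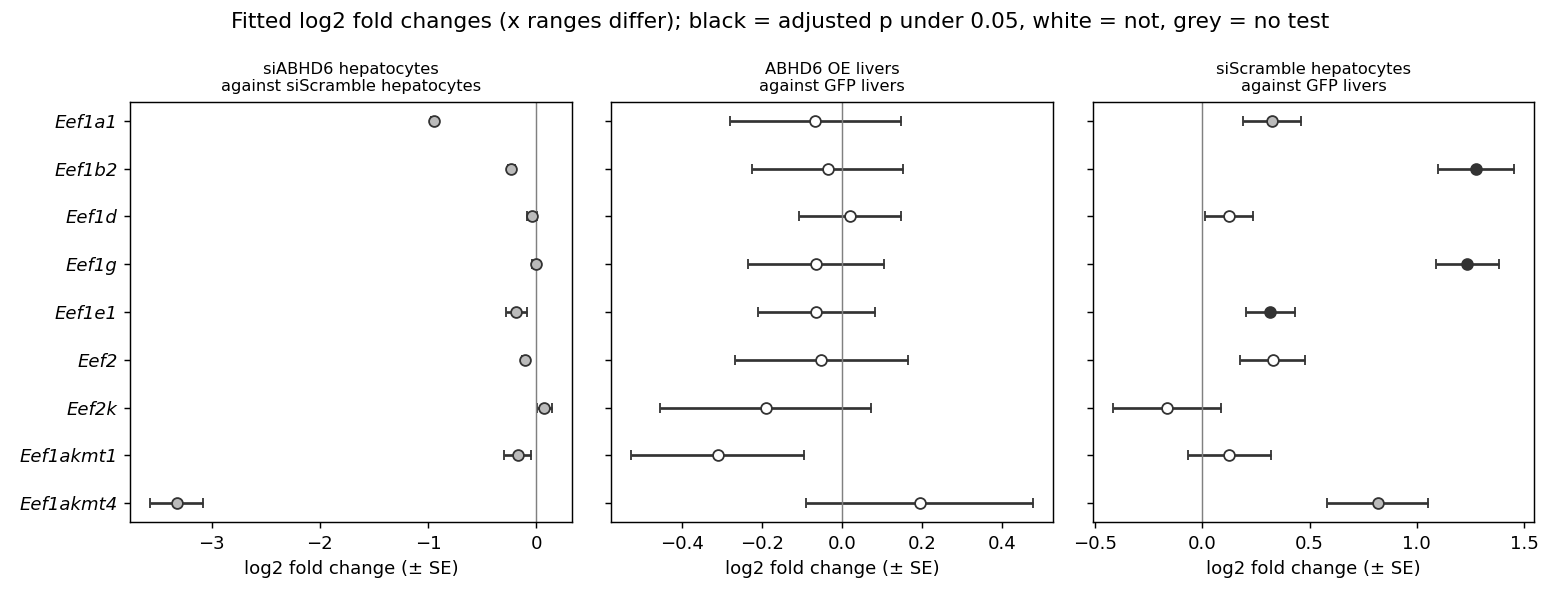
Fitted log2 fold changes of the 9 genes with their standard errors (horizontal axes, which differ in range between the panels), for siABHD6 over siScramble hepatocytes, ABHD6 OE over GFP livers and siScramble hepatocytes over GFP livers. Grey points carry no test, black points have an adjusted p under 0.05 and white points do not, so that Eef1b2, Eef1g and Eef1e1 are black and Eef1a1 and Eef1akmt4 grey in the panel of hepatocytes against livers and every point is white in the liver panel.

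Markers of other cell types moved with the comparison of siScramble hepatocytes and GFP livers, and their part in these results was not tested. All 10 hepatocyte markers were lower in siScramble hepatocytes (adjusted p under 0.05 by edgeR, median log2 fold change −4.55). In CPM by library total, 8 Kupffer cell and macrophage markers summed to 80.3 to 87.1 in siScramble hepatocytes and 188 to 300 in GFP livers (Timd4 had no count in siScramble hepatocytes). Of these 8, 7 were lower and 1 higher in siScramble hepatocytes (adjusted p under 0.05 by edgeR, median log2 fold change −7.56), which the sum does not show. The 6 sinusoidal endothelial markers summed to 14.4 to 16.3 in siScramble hepatocytes, where Clec4g had no count, and to 130 to 205 in GFP livers. The 6 stellate cell and fibroblast markers summed to 2.70 to 3.39 in siScramble hepatocytes and 105 to 381 in GFP livers, whereas 5 cholangiocyte markers summed to 676 to 742 in siScramble hepatocytes and 47.9 to 72.3 in GFP livers. Spp1, 1 of these 5, alone had a mean log2 CPM of 9.44 over the hepatocyte libraries, scaled over those libraries alone, so the sum mostly follows that gene. Only 3 of the 5 passed the filter, all higher in siScramble hepatocytes (adjusted p under 0.05 by edgeR, median log2 fold change 2.08). The 6 lymphoid markers reached 0.242 in siScramble hepatocytes, where Cd3e, Cd3d, Trac and Ms4a1 had no count, and 2.30 to 6.47 in GFP livers, and the 5 erythroid markers summed to 5.70 to 6.53 in siScramble hepatocytes and 150 to 176 in GFP livers. In siABHD6 hepatocytes the macrophage list summed to 66.0 to 85.2 (Timd4 and Marco had no count), the endothelial list to 14.0 to 16.9, the stellate list to 3.32 to 6.98 (Lrat had no count) and the cholangiocyte list to 686 to 890 (Krt7 had no count). The lymphoid list there reached 0.407 and the erythroid list 8.58. The part of these lists in the siRNA comparison was not tested either.

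Compared per kilobase, Eef1a1 had the highest mean level of the 9 genes in all 4 groups, at 1435 CPM per kilobase in siABHD6 hepatocytes, 2728 in siScramble hepatocytes, 1966 in ABHD6 OE livers and 2059 in GFP livers. Eef2 followed in each group, at 725 CPM per kilobase in siABHD6 hepatocytes, 771 in siScramble hepatocytes, 561 in ABHD6 OE livers and 581 in GFP livers. Then came Eef1g and Eef1b2, at 169 and 115 CPM per kilobase in siABHD6 hepatocytes and 167 and 133 in siScramble hepatocytes. In GFP livers those 2 genes stood at 67.3 and 51.9 CPM per kilobase. Eef1akmt4 was the lowest of the 9 in siABHD6 hepatocytes (0.459 CPM per kilobase), ABHD6 OE livers (2.78) and GFP livers (2.44), while in siScramble hepatocytes (4.54) it stood above Eef2k (3.15). The table's length for Eef1d is 6488 bases and for Eef2k 7408 bases, and a shorter transcript would raise the per-kilobase level.

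The genes most like Eef1a1 and Eef1akmt4 over the 12 libraries were sought among 10082 protein-coding genes, with log2 CPM centred within the hepatocyte and within the liver libraries. For Eef1a1 they were Txndc5 (Pearson r = 0.98), Canx (0.98) and Ociad1 (0.97), and for Eef1akmt4 they were Txndc5 (0.98), Mesd (0.98) and Eef1a1 (0.97), each over 12 libraries. Txndc5 is an endoplasmic reticulum disulfide isomerase, Canx the chaperone calnexin and Mesd a chaperone of LDL receptor family proteins. Their log2 fold changes of siABHD6 over siScramble were −0.68 (SE 0.04) for Txndc5, −0.69 (SE 0.04) for Canx, −0.43 (SE 0.04) for Ociad1 and −1.06 (SE 0.07) for Mesd. The points share the siRNA groups and the libraries, so these correlations mostly restate a difference between 3 and 3 libraries.

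The rest of the translation pathway was followed in 7 lists that hold 135 further genes. In siABHD6 against siScramble hepatocytes, 20 of 21 other genes of elongation and of eEF1A or eEF2 modification were tested, with 0 higher and 1 lower (5% called, against 15.4% of all genes tested) and a median log2 fold change of −0.14, against −0.00 over all genes. The one lower was Gtpbp2, a GTPase linked to the rescue of stalled ribosomes, at 62.3 ± 2.72 CPM in siABHD6 and 78.2 ± 1.28 CPM in siScramble hepatocytes (SD, n = 3 each; log2 fold change −0.35, SE 0.05, adjusted p = 1.82e-05 by edgeR). The count was 2 without the first siABHD6 or the third siScramble library. The other eEF1A methyltransferase genes were not called: Eef1aknmt, whose human product METTL13 also methylates eEF1A, had −0.20 (SE 0.09, adjusted p = 0.158 by edgeR), and Eef1akmt2 had −0.33 (SE 0.18, adjusted p = 0.248). Eef2kmt, an eEF2 methyltransferase gene, had −0.28 (SE 0.10, adjusted p = 0.0516 by edgeR), and Eif5a had 0.00 (SE 0.03, adjusted p = 0.984).

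Among 22 cytosolic aminoacyl-tRNA synthetases and scaffolds, which supply eEF1A with charged tRNA, 8 were lower in siABHD6 hepatocytes and 0 higher (36.4% called, against 15.4% of all genes tested), with a median log2 fold change of −0.10. The lower count was 5 without the second siScramble library. Sars, the seryl-tRNA synthetase, averaged 165 ± 4.37 CPM in siABHD6 and 195 ± 6.30 CPM in siScramble hepatocytes (log2 fold change −0.26, SE 0.04, adjusted p = 7.53e-05 by edgeR). Lars had −0.25 (SE 0.04, adjusted p = 0.000396 by edgeR), and Wars had −0.26 (SE 0.06, adjusted p = 0.00498), the call of Wars being lost without the second siScramble library (adjusted p = 0.0544). Of 41 initiation genes, 8 were lower and 2 higher (24.4% called, against the same 15.4%, median −0.06), the higher count being 0 without the second siScramble library and 1 without any 1 of the others. The lower ones included Eif2s3x, the gamma subunit of eIF2, at 68.9 ± 2.44 CPM in siABHD6 and 90.1 ± 1.36 CPM in siScramble hepatocytes (log2 fold change −0.41, SE 0.04, adjusted p = 1.59e-06 by edgeR), Eif4b, the helicase cofactor (−0.33, SE 0.04, adjusted p = 2.36e-06), and Eif2s2, the beta subunit of eIF2 (−0.20, SE 0.04, adjusted p = 0.00220).

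The remaining lists hold 6 to 18 tested genes each, and their shares called in hepatocytes are again set beside 15.4% of all genes tested. Of 16 kinase and calmodulin genes upstream of Eef2k, 3 were higher and 0 lower (18.8% called, median 0.09): Mapkapk2 (0.26, SE 0.04, adjusted p = 0.000227 by edgeR), Calm3 (0.18, SE 0.04, adjusted p = 0.00347) and Calm2 (0.11, SE 0.04, adjusted p = 0.0498), the call of Calm2 being lost without any 1 of the 6 libraries. The count was then 2. Of 11 mitochondrial translation factors 2 were lower and 0 higher (18.2% called, median −0.11), Mrrf at −0.35 (SE 0.08, adjusted p = 0.00664 by edgeR) and Mtif2 at −0.23 (SE 0.06, adjusted p = 0.00732). Of 18 other protein methyltransferases 2 were higher, Mettl9 (0.25) and Pcmt1 (0.20), and 1 lower, Ntmt1 (−0.32), which is 16.7% called, with a median of −0.07. Of 6 termination and recycling genes 1 was higher, Gspt2 (0.43), and 1 lower, Gspt1 (−0.14), which is 33.3% called, with a median of 0.02. The calls of Mettl9, Pcmt1, Ntmt1 and Gspt2 were each lost without at least 1 library (highest adjusted p = 0.234, 0.0578, 0.0692 and 0.114 by edgeR). In livers, 0 of the 132 list genes tested were called by edgeR's quasi-likelihood test, by DESeq2 or by limma-voom, and 2 had an unadjusted p under 0.05 in the edgeR fit.

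**Figure D5:**
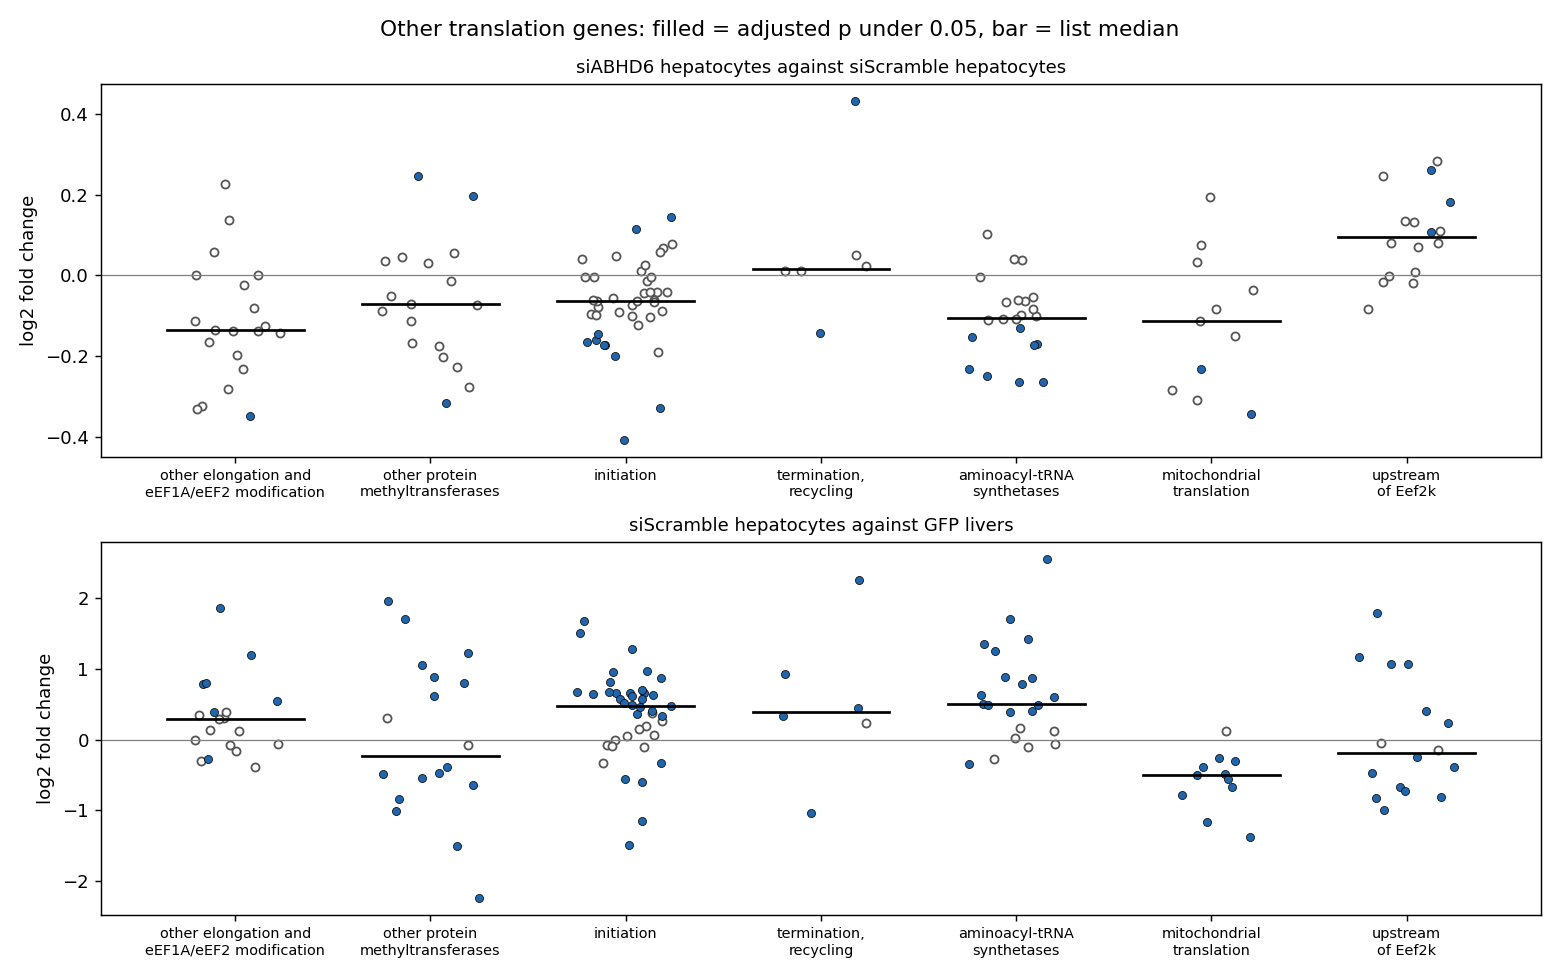
Log2 fold changes (vertical axes, which differ in range) of the tested genes of 7 translation lists, for siABHD6 over siScramble hepatocytes (upper panel) and siScramble hepatocytes over GFP livers (lower panel). Filled points have an adjusted p under 0.05 and bars mark list medians, which lie between −0.14 and 0.09 in the upper panel.

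Between siScramble hepatocytes and GFP livers, counts and medians of the lists depend on the scaling in the same way. Relative to the median of all genes, the list medians were 0.54 for synthetases, 0.52 for initiation and −0.47 for mitochondrial factors with library totals, where 22, 38 and 3 genes of them were called higher and 0, 1 and 1 lower. Of all 14215 genes tested, 8388 were called higher and 2923 lower with library totals. On that scale 18 other elongation genes were called higher and 0 lower (median log2 fold change 1.13), 5 termination genes higher and 0 lower (1.23), 11 other methyltransferases higher and 2 lower (0.59) and 10 genes upstream of Eef2k higher and 0 lower (0.64). The values that follow use TMM, with which 70.3% of all genes tested were called and 33.3% called higher. Synthetase genes were higher for 15 and lower for 1 of 22 (72.7% called, median log2 fold change 0.50), led by Gars at 371 ± 10.5 CPM in siScramble hepatocytes and 60.0 ± 4.49 CPM in GFP livers (2.55, SE 0.10, adjusted p = 1.80e-06 by edgeR). Initiation genes were higher for 25 and lower for 5 of 41 (73.2% called, median 0.48), among them Eif6 (1.67, SE 0.09, adjusted p = 5.61e-06 by edgeR). Of the genes for eIF4E repressors, Eif4ebp1 was higher, at 147 ± 9.66 CPM in siScramble hepatocytes and 49.2 ± 9.34 CPM in GFP livers (SD, n = 3 each; adjusted p = 9.10e-05 by edgeR), and Eif4ebp2 lower (−1.48, SE 0.09, adjusted p = 1.39e-05). Of 19 other elongation genes tested, 6 were higher and 1 lower (36.8% called, median 0.29), including Dph6 of diphthamide synthesis on eEF2 (1.20, SE 0.24, adjusted p = 0.00326 by edgeR) and Eef1aknmt (0.54, SE 0.11, adjusted p = 0.00359). The higher count was 3 without the third siScramble library. Mitochondrial factors were lower for 10 and higher for 0 of 11 (90.9% called, median −0.50), led by Gfm1 (−1.38, SE 0.14, adjusted p = 0.000106 by edgeR), and the lower count was 4, 5 and 4 without the first, the second and the third siScramble library and 6 without the first GFP liver. Termination genes were higher for 4 and lower for 1 of 6 (83.3% called, median 0.39), with 2 higher when any 1 siScramble library was left out. The other methyltransferases were higher for 7 and lower for 9 of 18 (88.9% called, median −0.23), and the genes upstream of Eef2k higher for 6 and lower for 8 of 16 (87.5% called, median −0.19), with 5 lower without the second siScramble library or the third. Among the other small counts, the 1 lower elongation gene became 0 without any 1 siScramble library or without the first GFP liver and 2 without the second GFP liver, the 1 lower synthetase became 0 without any 1 siScramble library or the first GFP liver, and 3 initiation genes were lower without the third siScramble library.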

How the data were processed

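Poly-A RNA sequencing of 12 samples was deposited by the authors as raw counts per gene, with gene lengths and coordinates in the same table. Reads were aligned with HISAT2 to the mm39 build, and DESeq2 was used, per the submitters' processing notes; no version is given, and the counting program, strand setting and annotation release are not given in the sources used here. The members and the lists were chosen with earlier results of these data known. Groups came from the sample titles.

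Counts were tested with edgeR 4.0.16 (filterByExpr, TMM, quasi-likelihood F-test, Benjamini-Hochberg adjustment over all genes tested, called at an adjusted p under 0.05), in R 4.3.3, separately on the 6 libraries of each comparison. Unless stated otherwise, CPM levels were scaled by TMM over all 12 libraries, so their ratios differ slightly from the fitted fold changes, and log2 CPM used a prior count of 2. Totals ran from 12295733 to 14453320 counts in hepatocytes and from 13303141 to 16234658 in livers, so that genes with few reads, such as Eef1akmt4, are limited by counting error. Genes named are the 9 genes, Abhd6, genes overlapping them or named as their pseudogenes, the 3 closest genes by correlation for Eef1a1 and Eef1akmt4, and up to 3 called genes of largest fold change from each list and comparison, leaving out those whose mean log2 CPM was under 1. Eef2-ps2, Eef1aknmt, Eef2kmt, Eif5a and, in hepatocytes, Eef1akmt2 were named after their values were seen. The edgeR test of each comparison was first run on simulated counts, and DESeq2 and limma-voom were not. Promoter windows are RefSeq, GRCm38.p6, and were not converted to mm39. Alternatives were DESeq2 1.42.0, limma 3.58.1 (voom), RLE normalization, no filter, a filter of 1 CPM in every library, a fit over all 12 libraries, the replicate block, leaving out each library and, chosen after seeing the data, scaling to library totals. The deposited table of normalized values was not used.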

Additional observations from a re-analysis of the deposited data

How the results depend on the processing

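Genes called between livers numbered 2 without a filter on low counts, 8 by DESeq2 and 4 in a fit over all 12 libraries, and 0 whichever 1 library was left out. Between hepatocyte groups the 12-library fit, which shares the wider spread of the livers, called 41 genes and 2 of the 9; leaving out 1 library gave 1468 to 1873 genes and 3 to 4 of the 9. Between siScramble hepatocytes and GFP livers, leaving out 1 library gave 9127 to 11331 genes and 2 (without the second or the third siScramble library) to 7 (without the third GFP liver) of the 9, counts that include Eef1a1 and Eef1akmt4, for which no test is given. Scaling to library totals, chosen after seeing the data, moved the median of all genes there to 0.80 on the log2 scale. The share of calls that were higher rose to 74.2%, against 47.4% with TMM. Of 14215 genes tested, 8388 were then called higher and 2923 lower. All 9 genes were called, with Eef2k reversed at 0.68, below that median. Averaging both hepatocyte groups against both liver groups reversed Eef1akmt4 to −0.90, Eef1a1 to −0.080 and Eef2k to 0.0016, in a contrast that also holds the siABHD6 libraries. Between livers, where no gene of the 9 was called, leaving out 1 library turned the sign of 5 of them, whose log2 fold changes then ran from −0.14 to 0.19 for Eef1b2, from −0.049 to 0.13 for Eef1d, from −0.17 to 0.10 for Eef1g, from −0.14 to 0.089 for Eef2 and from −0.43 to 0.10 for Eef2k, and library totals turned Eef1b2 to 0.013. The same range for Eef2k between siScramble hepatocytes and GFP livers was −0.39 to 0.15. The log2 fold change of siABHD6 over siScramble ran from −0.98 to −0.91 for Eef1a1 and from −3.80 (without the third siABHD6 library) to −3.08 for Eef1akmt4, which the filter of 1 CPM removed. With a replicate block the counts were 0 genes between livers, 2124 between hepatocyte groups and 9384 between siScramble hepatocytes and GFP livers, where the block left 3 of the 9 called; libraries of the same number did not deviate together (the correlations were −0.41, 0.43 and −0.13 for livers, and between −0.0104 and −0.00280 for hepatocytes), and the numbers pair no libraries. Between siScramble hepatocytes and GFP livers, Eef2 was called by DESeq2 (adjusted p = 0.0215), by limma-voom (adjusted p = 0.0481) and in edgeR's 12-library fit (adjusted p = 0.0397), and the call of Eef1e1 ended under DESeq2 (adjusted p = 0.0513). Depth limits Eef1akmt4 most, at 7 to 19 reads in siABHD6 libraries.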
